A study of Mus musculus with 2 samples.

Results

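On mouse chromosome 10, 5 blocks of dense reads were found in both libraries of a KDM4A chromatin immunoprecipitation experiment. The stretch described runs from 106 to 119 Mb of build mm8 and holds 1300 bins of 10 kb, of 246252 autosomal bins in all. Reads of mapping quality 30 or more (on a scale that reached 42) were kept, at 1 read per 5 prime position and strand, and the level of a bin is its reads divided by the library's median over autosomal 10 kb bins. A block is a run of bins at a level of 5 or more in both libraries, with runs parted by at most 2 bins joined. By this rule 53 of the 1300 bins were members, and 118 bins elsewhere on the autosomes passed the same level. Over all autosomal bins the share that passed was 0.0694%. The blocks were thus chosen by their read numbers in both libraries, and their height is a description with no test.

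The cells were 3T3-L1, a mouse fibroblast-like preadipocyte line, transfected with siRNA and induced to differentiate, per the labels. In 1 library (siCTL) the cells had received a control siRNA, and in the other (siGPS2) siRNAs specific for GPS2, which belongs to the NCoR/SMRT corepressors. Both were immunoprecipitated with the same antibody to KDM4A (written anti-KMD4A in the labels), a demethylase of histone H3 lysines. The series title and design ask whether KDM4A occupancy depends on GPS2. Each group had 1 library, so no difference between the groups has a replicate check, and no input library was analysed here. Every interval below covers counting error only, and without molecular identifiers the reads cannot be taken as separate molecules.

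A chromosome segment can be present in many extra copies in a cell line, a state called amplification. Amplified segments may lie in tandem within a chromosome or on small extrachromosomal elements called double minutes, and can join pieces that are far apart on the reference chromosome. Mdm2, an inhibitor of p53, took its name from the double minutes of a transformed 3T3 line. Immunoprecipitated DNA always carries some chromatin that the antibody did not select, so a segment with more copies gives more reads whether or not the protein is enriched there. An input library would be needed to separate these cases. Here, more DNA copies and more immunoprecipitated chromatin in the blocks cannot be told apart, and the blocks are named only for their coverage. No annotation of mm8 was used, so which genes lie in them was not analysed here.

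The siCTL library held 5487457 distinct reads of high mapping quality and the siGPS2 library 4115473. The autosomal median was 21 reads per 10 kb bin in siCTL and 15 in siGPS2. These medians are whole numbers of few reads, and their ratio, 0.714, lies below the ratio of library sizes, 0.750. A level in siGPS2 therefore reads 1.05 times higher against siCTL than the same reads scaled to library size. Levels are used below to compare positions within a library, and the libraries are compared by ratios of reads scaled to library size (siGPS2 over siCTL, with an exact conditional 95% interval).

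The blocks took in a large part of the reads of the region. Over 530 kb they held 77285 siCTL reads and 60657 siGPS2 reads, which was 75.8% and 77.0% of the reads of the 13 Mb and 1.41% and 1.47% of each library. Their mean level was 69.4 in siCTL and 76.3 in siGPS2. The median bin of the region lay at 0.905 in siCTL and 0.933 in siGPS2 over all 1300 bins. Of the 46 autosomal bins at a level of 50 or more in both libraries, 45 lay in these blocks. The other was on chromosome 17 at 39450001 to 39460000, with levels of 105 in siCTL and 137 in siGPS2. Of the 58 bins at 20 or more in both, 50 lay in these blocks, and 7 others formed a run on chromosome 11 from 3030001 to 3100000 with siCTL levels of 29.6 to 38.0.

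**Figure D1:**
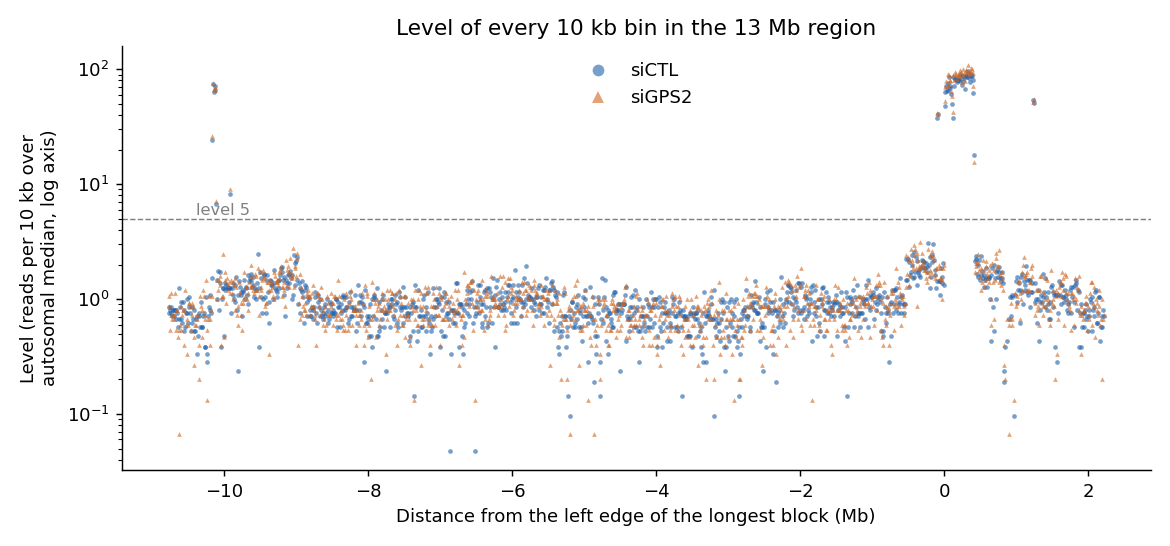
Level of each 10 kb bin (vertical axis, logarithmic) against distance from the left edge of the longest block in Mb, with circles for siCTL and triangles for siGPS2. Bins without reads are not drawn. The blocks stand at levels up to 97.5 in siCTL and 109 in siGPS2 with few bins between them and the surround, and the dashed line marks level 5.

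The first block covered 6 bins, from 106610001 to 106670000. Its siCTL levels were 24.4, 75.1, 63.5, 72.1, 65.8 and 6.67 from left to right, and its siGPS2 levels 26.3, 75.5, 67.4, 70.4, 65.9 and 7.13. The low outer bins were only partly covered, since the edges lay inside them. The second block was a single bin, 106850001 to 106860000, at 8.19 in siCTL and 9.07 in siGPS2. The third block, 116680001 to 116700000, had levels of 37.5 and 41.0 in siCTL and 41.8 and 40.5 in siGPS2. The fourth and by far the longest, 116780001 to 117200000, covered 42 bins with a mean level of 75.8 (95% Poisson interval 75.2 to 76.3) in siCTL and 84.1 (83.4 to 84.8) in siGPS2. The fifth, 118010001 to 118030000, had 53.8 and 50.6 in siCTL and 52.3 and 55.4 in siGPS2. The threshold of 5 cut through no shoulder. The bin just inside, 106660001 to 106670000, had 6.67 in siCTL and 7.13 in siGPS2, while the highest bin outside, 116550001 to 116560000, had 3.10 and 2.73. With a threshold of 10 instead, 51 bins passed, and the single bin of the second block was not among them.

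Both strands contributed about equally. Plus-strand reads made up 48.3 to 50.5% of the reads of a block in siCTL and 47.8 to 51.7% in siGPS2. Most reads of the blocks were of high mapping quality: 98.5% of the siCTL reads in the first block, 95.03% in the second, 94.8% in the fourth and 96.3% in the fifth. The third block had the smallest share, 82.6% in siCTL and 81.9% in siGPS2.

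The blocks ended abruptly. An edge was taken as the single change of level that fitted best in 100 bp bins, using the reads of both libraries. The first block ran from 106617201 to 106661000, the third from 116685301 to 116695500, the fourth from 116781401 to 117187500 and the fifth from 118013901 to 118026300. The edges of the third and the fifth, and those of the short stretches below, were added after the data were seen. Across the left edge of the first block, siCTL fell from 160 reads per kb in the 5 kb inside to 3.0 in the 5 kb outside, and siGPS2 from 114 to 2.4. Across its right edge the values were 126 and 2.6 in siCTL and 85.0 and 1.8 in siGPS2. At the left edge of the fourth block siCTL had 120 reads per kb inside and 3.6 outside, and at its right edge 173 and 4.6. At the 8 edges of these 4 blocks, the fold from outside to inside ran from 24.97 to 63.6 in siCTL and from 21.6 to 71.6 in siGPS2. At 4 edges of 2 short stretches it was measured from the edge to the peak centre inside and over 2 kb outside. There it ran from 28.2 to 47.75 in siCTL and from 22.3 to 135 in siGPS2. All these folds rest on few outside reads.

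The libraries placed the edges alike. When each library was fitted alone, 8 of the 12 edges fell in the same 100 bp bin and the other 4 differed by 100 bp. At single base resolution the strands could be told apart. At the left edge of the fifth block, plus-strand 5 prime ends started at 118013892 and minus-strand 5 prime ends at 118013935. At its right edge, plus-strand ends stopped at 118026215 and minus-strand ends at 118026266. The offset between strands had this direction at 12 of 12 edges, in the libraries pooled and in each alone. Pooled, it ran from 34 to 71 bp with a median of 47 bp, and 9 of the 12 lay between 40 and 62 bp. The medians were 51 bp in siCTL alone and 50.5 bp in siGPS2 alone, with wider ranges (4 to 166 bp and 3 to 71 bp). The usual span of a deposited alignment was 48 bp. For alignments that must lie wholly within a segment, the 5 prime ends of the strands stop about 1 span apart at each end of it. Whether the edges here are ends of such segments was not tested.

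**Figure D2:**
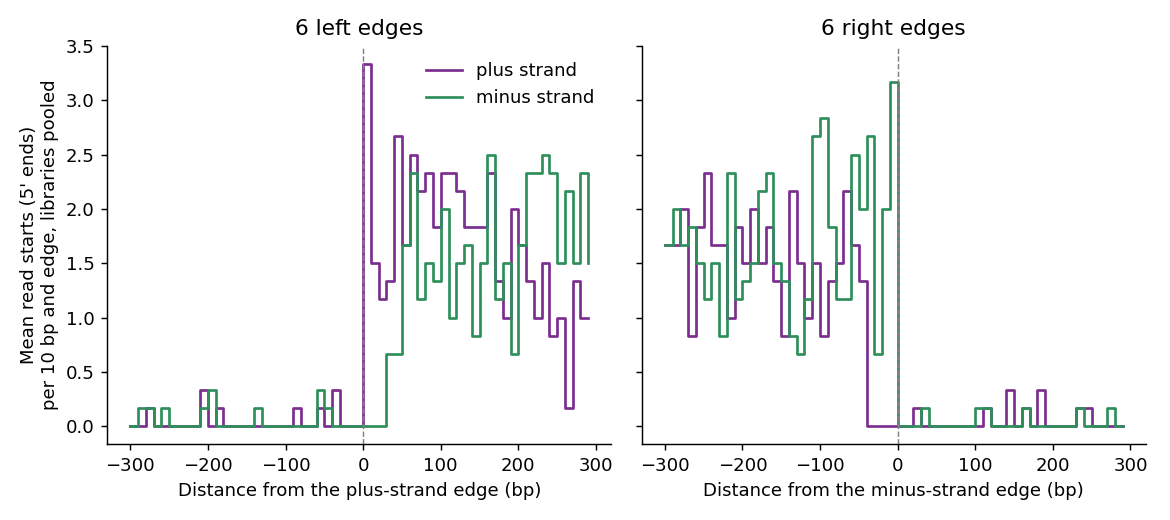
Mean number of 5 prime read ends per 10 bp and edge (vertical axis, both libraries pooled) against distance in bp, for 6 left edges aligned on the fitted plus-strand edge and 6 right edges aligned on the fitted minus-strand edge. The alignment makes the step of that strand sharp by construction. The other strand starts or stops further inside, with a median offset over the 12 edges of 47 bp.

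Between the edges the blocks formed plateaus of similar but not equal height. In siCTL the reads per kb between the edges were 146 in the first block, 157 in the third, 164 in the fourth and 174 in the fifth. In siGPS2 they were 106, 118, 130 and 129. As levels, siCTL had 69.7 (95% Poisson interval 68.0 to 71.4), 74.6 (71.0 to 78.4), 77.9 (77.3 to 78.5) and 83.0 (79.6 to 86.6). The siGPS2 levels were 70.9 (68.9 to 73.0), 78.9 (74.5 to 83.5), 86.6 (85.8 to 87.3) and 85.9 (81.8 to 90.2). By mean level the first block was thus lowest in both libraries. Its counting interval overlapped only that of the third block, in siCTL alone. By the median 1 kb window the first block was close to the third, with 154 against 156 reads in siCTL and 114 in each in siGPS2. Windows of 1 kb inside the blocks varied more than counting would give, so counting intervals do not settle the order of the blocks. Intervals of the third and the fourth overlapped in siCTL but not of the fourth and the fifth there, and the fourth and the fifth overlapped in siGPS2. In the fourth block 8.18% of all positions and strands were filled in siCTL and 6.49% in siGPS2. Allowing for several reads falling on 1 position, its level would be 81.3 in siCTL and 89.5 in siGPS2.

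Inside the blocks, steps of level were found in the fourth block and nowhere else. A step needed at least 3 bins on each side, a set minimum difference between the mean levels and a log likelihood gain of at least 50. Only the first and the fourth block had enough bins to be divided. The same cuts came from the pooled reads, from siCTL alone and from siGPS2 alone. The fourth block divided into 116780001 to 116870000 at 68.3 in siCTL and 76.7 in siGPS2, 116870001 to 116900000 at 49.7 and 55.3, 116900001 to 117170000 at 83.6 and 92.4, and 117170001 to 117200000 at 53.6 and 60.3. The last of these holds the right edge of the block and is low for that. The splitting compares the whole sides of a stretch at each cut. With a 1.5-fold difference required there it made no cut, although some neighbouring parts given above differ by more.

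Windows of 1 kb showed what the second of these parts was. From 116888001 to 116895000, 7 windows in a row held 24 siCTL reads and 15 siGPS2 reads, where the median 1 kb window of the fourth block held 170 and 135. All 24 and 15 lay in the last window, 116894001 to 116895000. The windows from 116888001 to 116894000 held 0 reads of high mapping quality in each library, which allows up to 3 reads a window. The 3 lowest windows by rule, from 116888001 to 116891000, were the first of these and tied with the rest. Reads of any mapping quality over the 7 windows were 36 in siCTL and 28 in siGPS2, so the stretch was nearly empty whatever the quality. Left of it, from 116781401 to 116888000, the median window held 148 siCTL reads (quartiles 120 and 176) and 114 siGPS2 reads. Right of it, from 116895001 to 117187500, the medians were 176 (158 and 195) and 139. By median window the right part was 1.19 times the left in siCTL and 1.22 times in siGPS2. By mean level it was 1.22 times in siCTL and 1.21 times in siGPS2. By mean reads of any mapping quality the difference was 1.16 and 1.15 times. The share of high mapping quality in siCTL was 90.8% in the left part and 96.0% in the right.

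**Figure D3:**
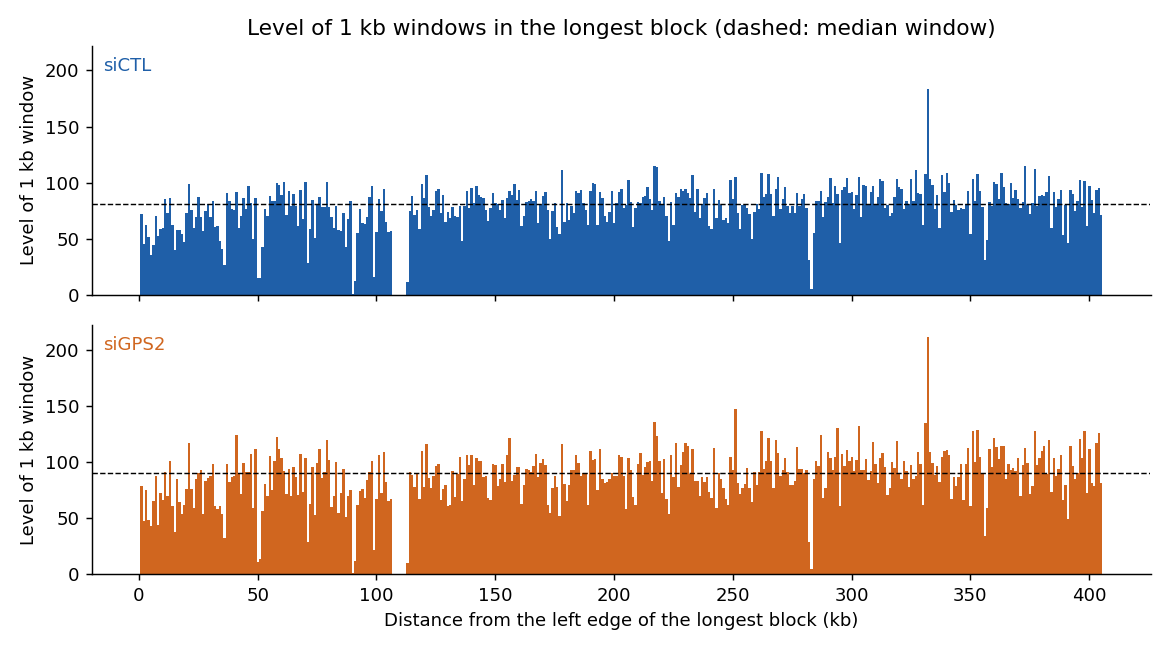
Level of each 1 kb window of the fourth block in siCTL (upper) and siGPS2 (lower), as bars, against distance from its left edge in kb. The dashed line is the median window, 81.0 in siCTL and 90.0 in siGPS2. The same gaps appear in both libraries, the widest 7 windows long, and 1 window stands above all others in both.

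Of the 405 windows of the fourth block, 12 lay under 25% of the median of their part. Besides the 7 named, they were 116831001 to 116833000, 116871001 to 116873000 and 117064001 to 117065000. The pair at 116831001 held 63 siCTL reads of high mapping quality but 151 of any quality, and 36 and 126 in siGPS2, so its shortfall was smaller, though still present, when every mapping quality was counted. The window at 117064001 held 10 siCTL reads of high quality and 22 of any quality, and so was low on both counts. The first block had 1 such window of 43, at 106631001 to 106632000, and the third and the fifth had 0 of 9 and 0 of 12.

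The highest window of the fourth block, by reads and relative to the median of its part, was 117113001 to 117114000. It held 386 siCTL reads and 317 siGPS2 reads, 2.19 and 2.27 times the median of its part, and the windows had been ranked in siCTL only. It was the single window of the 405 at 2 times the median or more in both libraries. Its densest 300 bp, 117113501 to 117113800, held 135 siCTL reads, 2.56 times the median (95% Poisson interval 2.14 to 3.03), and 106 siGPS2 reads, 2.53 times (2.07 to 3.06). Window and core were both picked for their reads, and the intervals do not allow for that choice. The libraries did not differ there beyond counting error, with a ratio of 1.05 (0.804 to 1.36). Of the reads in that core 48.9% were on the plus strand in siCTL and 43.4% in siGPS2. No deposited peak of either list lay within 5 kb of it. Relative to the median of their part, the next 2 windows in siCTL were 116879001 and 116884001, with 204 and 198 reads, fewer than other windows of the block. They stood at 1.59 and 1.55 times a median that the nearly empty stretch had lowered, and at 1.498 and 1.62 times in siGPS2.

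The profile inside the fourth block was shared by the libraries. Over the 405 windows of 1 kb the correlation between libraries was 0.915 (Pearson) and 0.851 (Spearman), given as a description, since windows share base composition and mappability. Without the 12 low windows, a set left out after the data were seen, Pearson's value was 0.871. The windows varied by a coefficient of variation of 27.3% in siCTL and 28.9% in siGPS2, where counting alone would give 7.82% and 8.77%. The part of the variation common to both libraries came to 26.9%. Of the 20 windows highest in siCTL, 19 were above the median of their part in siGPS2, with a median of 1.36 times against 1.39 in siCTL. The way the reads of a window divided between the libraries varied no more than counting would give, with a mean squared deviation of 0.991 binomial variances over the 399 windows with reads. The corresponding value was 0.982 in the first block over 43 windows, 1.18 in the third over 9 and 1.24 in the fifth over 12. Between libraries, Pearson's correlation was 0.897 in the first, 0.839 in the third and 0.640 in the fifth.

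**Figure D4:**
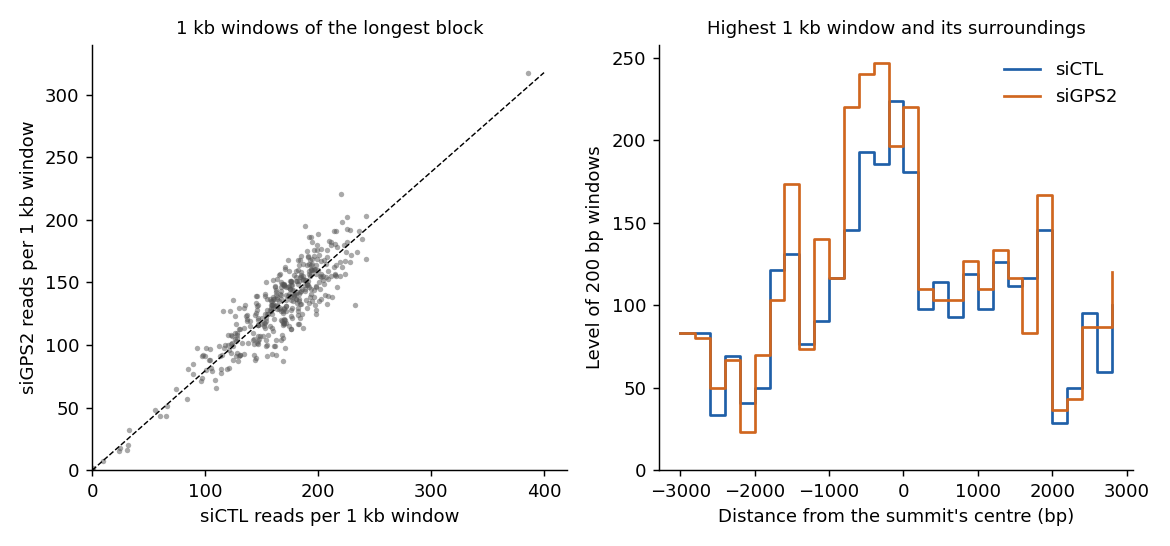
Left, reads of each 1 kb window of the fourth block in siCTL (horizontal) and siGPS2 (vertical), with a dashed line at the overall proportion; the point at 386 and 317 reads is the highest window. Right, level of 200 bp windows around the centre of that window's densest 300 bp, by distance in bp, in both libraries. The rise is present in both libraries and nearby windows return towards the level of the block.

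The libraries agreed closely in the height of the blocks. Summed over the 5, the ratio of siGPS2 to siCTL was 1.05 (95% interval 1.04 to 1.06). By bin, the ratio lay above 1 in 45 of 53, with 11 intervals above 1 and 1 below. Of the 53 bins, 42 belong to the fourth block, so these counts mainly repeat its ratio. The same counts were not made over all autosomal bins. The lowest bin, 117190001 to 117200000, had 0.831 (0.702 to 0.981) and the highest, 117130001 to 117140000, had 1.14 (1.06 to 1.23). No block bin reached a 1.5-fold difference in either direction. Among autosomal bins with at least 30 reads, 9.5% reached it as higher in siGPS2 and 9.66% as lower. Those bins held a median of 43 reads over both libraries, against 2853 in the block bins, so their ratios scatter more by counting alone and the shares do not compare like with like.

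By block, the first had 0.969 (0.933 to 1.01) between its edges, the third 1.01 (0.933 to 1.09), the fourth 1.06 (1.05 to 1.07) and the fifth 0.986 (0.923 to 1.05). For the first block the interval lay wholly below 1 when reads were corrected for filled positions, at 0.959 (0.924 to 0.995), and in the common tiles alone, at 0.960 (0.924 to 0.998). Scaled to the autosomal median it was 1.02 (0.980 to 1.06). The fourth lay above the first by 1.09 times (95% interval of the ratio of ratios, from counts, 1.05 to 1.14) and above the fifth by 1.07 times (1.01 to 1.15). Its distance from the third, 1.05 times (0.975 to 1.13), was within counting error. This comparison needs no scaling of the libraries but still rests on 1 library of each kind. The ratio was also computed by place on the flow cell, and whether it differed there beyond counting error was not tested. In the 14 tiles that held over 100000 deposited reads in both libraries, the ratio of the fourth block ran from 0.993 in tile 1101 to 1.10 in tile 1206 with a median of 1.05, and was above 1 in 13. The share of siCTL reads that fell in the fourth block was 1.38% in tile 1101 and 1.08% in tile 1206, and in siGPS2 1.37% and 1.19%. The ratio of the fourth block exceeded that of the first in 12 of the 14 tiles. The part of the flow cell in this difference was not tested.

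The bins around the blocks had steps of their own. The splitting applied inside the blocks was run, after the data were seen, on the 1247 other bins of the region. From 106000001 to 106600000 the mean level was 0.723 (95% Poisson interval 0.677 to 0.772) in siCTL and 0.711 (0.657 to 0.768) in siGPS2. From 106600001 to 107960000, the surround of the first and second blocks, it was 1.28 (1.23 to 1.32) and 1.302 (1.251 to 1.354). The long stretch from 107960001 to 116240000 had 0.822 (0.809 to 0.836) and 0.832 (0.816 to 0.849). The surround of the third and the fourth blocks, 116240001 to 117590000, was the highest, at 1.74 (1.68 to 1.80) in siCTL and 1.87 (1.80 to 1.95) in siGPS2. It was followed by 17 bins, 117590001 to 117760000, at 0.429 and 0.376, and by the surround of the fifth block, 117760001 to 118650000, at 1.10 and 1.17. The starts at 106600001 and 116240001 were found at the same bin in each library alone. The other starts were less firm: 107960001 moved in both libraries, 117590001 and 117760001 were found in siGPS2 but not at the same bin in siCTL, 118650001 was found in neither alone, and each library alone gave 6 levels where the pooled reads gave 7. Every block thus lay within a broader stretch whose level was above that of the long stretch between them, and stood far above its own surround.

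Of the 9 deposited peaks that touched the blocks, 8 covered short stretches and none lay on the plateaus. The authors' peaks, each 2000 bp wide and called per library, numbered 15 in the region in the siCTL list of 1657 and 12 in the siGPS2 list of 1349. That is 1.15 and 0.923 peaks per Mb, against 0.637 and 0.517 over the autosomes. A block was touched by 5 of the siCTL peaks and by 4 of the siGPS2 peaks. That is 9.43 and 7.55 peaks per Mb of block, above the autosomal rates, but blocks and peaks were both picked for dense reads. None overlapped the plateaus of the first, the third, the fourth or the fifth block, but over their 472.5 kb the autosomal rates would give only 0.301 and 0.244 peaks, so nothing is read from that count. One of the siGPS2 list, 116678028 to 116680027, touched the third block by 27 bp and lay outside its edge.

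The other 8 peaks that touched a block were grouped at 2 places. In the second block, siCTL peaks 106853088 to 106855087 and 106852785 to 106854784 (places 63 and 76 in the order of the list) and the siGPS2 peak 106853048 to 106855047 (place 36) covered a stretch from 106853674 to 106854373, only 700 bp long. It held 137 siCTL and 118 siGPS2 reads, a level of 93.2 (95% Poisson interval 78.2 to 110) and 112 (93.0 to 135). Just beyond the right edge of the fourth block, siCTL peaks starting at 117192452, 117192927 and 117193564 (places 64, 68 and 80) and siGPS2 peaks starting at 117192599 and 117193504 (places 59 and 78) covered a stretch from 117193009 to 117194708. It was 1700 bp long and held 329 siCTL and 206 siGPS2 reads, a level of 92.2 (82.5 to 103) and 80.8 (70.1 to 92.6). The stretches thus stood near the height of the long plateaus, at 77.9 and 86.6 in the fourth block, with edges as abrupt. By counting error alone, the 700 bp stretch was above the fourth block in siGPS2, and the 1700 bp stretch was above it in siCTL. Their densities there, 169 and 194 reads per kb, lay within the spread of the block's own 1 kb windows. The 95th percentile of those windows was 180 reads in siGPS2 and 219 in siCTL. The edges of the stretches were also fitted to the same reads.

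**Figure D5:**
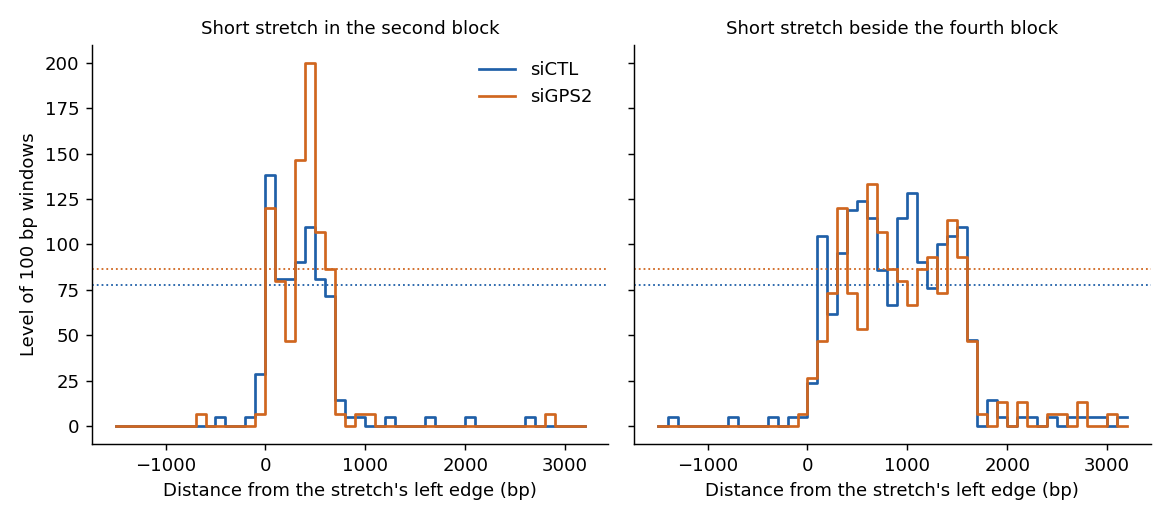
Level of 100 bp windows (vertical axis) against distance in bp from the left edge of the 700 bp stretch in the second block (left) and the 1700 bp stretch beside the fourth block (right), for both libraries. Dotted lines mark the level of the fourth block, 77.9 in siCTL and 86.6 in siGPS2. Reads rise to about that height and fall to almost none within a window or so at either side.

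The ratio of siGPS2 to siCTL was 1.15 (0.890 to 1.48) on the 700 bp stretch and 0.835 (0.698 to 0.997) on the 1700 bp stretch. Scaled to the autosomal median the latter was 0.877 (0.733 to 1.047), an interval that holds 1. Centres of the 3 peaks on the shorter stretch had 57.9 to 69.5 times the siCTL density of the rest of the second block, and 49.2 to 102 times in siGPS2. For the 5 peaks beside the fourth block the same comparison gave 3.62 to 4.44 times in siCTL and 2.41 to 2.89 times in siGPS2, because their flanks within the block include its plateau. Set against the mean density of the fourth block, the centres of those 5 lay at 1.10 to 1.53 times in siCTL and 0.924 to 1.001 times in siGPS2.

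Outside the blocks lay 10 siCTL peaks and 8 siGPS2 peaks. The most reads near a centre were at 116554978 to 116556977 of the siCTL list, also called in siGPS2 at 116554993, with 21 siCTL and 12 siGPS2 reads within 150 bp. Next was 107248142 to 107250141 of the siGPS2 list, with 16 siCTL and 8 siGPS2 reads, also called in siCTL at 107248329. The first of these stretches was 168 bp long, 116555885 to 116556052, with 0.764 times (0.473 to 1.17) the siCTL density of the fourth block and 0.550 times (0.284 to 0.961) in siGPS2. The second was 311 bp long, 107249079 to 107249389, at 0.393 times (0.240 to 0.607) and 0.272 times (0.136 to 0.487). Bounds set close around the reads raise such densities. Within 150 bp of the peak centre, the first had 0.428 times (0.265 to 0.654) in siCTL and 0.308 times (0.159 to 0.538) in siGPS2. The second had 0.326 times (0.186 to 0.530) and 0.205 times (0.0887 to 0.405). Both stretches thus rested on few reads and spanned far less than the 2000 bp of the deposited peaks.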

How the data were processed

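The 2 libraries came from an Illumina GAII sequencer, as the labels' protocols state. Bowtie, HOMER and build mm8 are named, per the submitters' processing notes, without roles, versions or settings. Each deposited read carries a mapping quality score, and reads were counted from the lines; 3 siCTL and 6 siGPS2 lines were cut short and left out. The deposited peak lists hold other values, coordinates only. Peak starts were taken to count from 0, and positions are printed counting from 1. Depth was 5487457 and 4115473 distinct reads of high mapping quality.

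Bins, edges, steps, windows and ratios were computed in Python 3.11.15 with numpy 2.4.6 and scipy 1.17.1. On simulated data, 100% of 200 planted edges were placed within 100 bp, 100% of 200 steps of 1.3-fold within 1 bin, and 94.7% of 1000 ratio intervals held the planted value. The simulated edges and steps varied by counting alone around flat levels. Windows inside the real blocks varied more and held gaps, so those 2 rates do not show how edges and steps are recovered here. The simulated ratios were drawn from the same binomial model that the interval assumes, so their rate checks the calculation only. Named were all blocks and steps, edges of blocks of at least 5 bins, deposited peaks touching blocks, the 3 strongest other peaks and the 3 highest and 3 lowest 1 kb windows. The members, rules and alternatives were chosen with earlier results of these data known. Alternatives changed mapping quality, repeats, bin size, depth, scaling, thresholds and windows. With 1 library per group no test between conditions was made. No sequence was printed, since no mm8 genome was used here.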

Additional observations from a re-analysis of the deposited data

Results flagged for a closer look

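Reads of mapping quality below 30, which entered no level above, piled up at 4 places in the region outside the fitted edges, with at least 8 such reads per 500 bp window in each library. Elsewhere outside the edges the mean was 0.146 such reads per 500 bp in siCTL and 0.110 in siGPS2. The places all lay within 10 kb of the fitted edges of the third block, and all but the first of them lay inside its 10 kb bins. From 116678501 to 116679500 there were 48 in siCTL and 32 in siGPS2, with 2 and 3 reads of high mapping quality. This is where deposited peaks of both lists lie, at 116677952 (place 123 of the siCTL list) and 116678028 (place 154 of the siGPS2 list). From 116681001 to 116682000 there were 17 and 19, from 116683001 to 116684000 there were 39 and 32, and from 116698001 to 116699000 there were 31 and 19.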

How the results depend on the processing

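The number of 10 kb bins in blocks, 53, stayed within 50.5 to 54 under all 7 alternatives. At a level of at least 10 it was 51, and the second block was lost. The ratio of siGPS2 to siCTL over the blocks stayed above 1 under all 8 alternatives. Scaling to the autosomal median gave a ratio of 1.10 (95% interval 1.09 to 1.11), and correction for filled positions 1.04. The mean level moved more, from 69.4 in siCTL and 76.3 in siGPS2: it was 64.1 and 67.2 with any mapping quality, 76.4 and 74.998 with 5 kb bins, 67.9 and 72.2 with 20 kb bins, 85.8 and 88.0 over the median of chromosome 10 outside the region, and 72.4 and 78.8 corrected for filled positions. With siCTL thinned to the siGPS2 number of reads its level was 68.5. The order of the libraries by level thus turned with 5 kb bins, where the median is a smaller whole number. Length within the edges was 474.9 kb, and 476.5 kb with 500 bp bins; per library, all 24 edge fits lay within 100 bp of the pooled edge. In 500 bp bins, 6 edges moved by over 100 bp, at most 400 bp. Of 48 recomputed plateau levels, 13 left their counting interval. Requiring a 1.5-fold difference at each cut left 5 undivided blocks in place of 8 parts. Of the 9 peaks touching blocks, 8 had their centre inside. The ratio of the fourth block ran from 1.05 to 1.11 over its 6 alternatives. Depth limits the second block and the shortest stretches most. No paired analysis was possible because each group has a single library.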
